A study of Mus musculus with 24 samples.

Results

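The 43 genes described here are interferon-stimulated antiviral genes out of the 54532 genes of a mouse RNA-seq count table. They were listed by gene symbol, without a threshold on their values, but with earlier results of these data known. All 43 symbols were found in the table once, and all 43 passed the filter on low counts that left 15035 genes to test. The list holds 4 sensors of foreign nucleic acid, 6 oligoadenylate synthetases and related proteins, 5 genes for RNA binding, RNA decay or a block of translation, 8 effectors on virus particles, replication or nucleotides, 5 genes for ISG15 and ADP-ribose modification, 7 signalling and other induced proteins, 2 PYHIN proteins, and 6 genes for interferon-induced GTPases and peptide transport.

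Bone marrow macrophages were expanded and then cultured toward osteoclasts, the multinucleate cells that resorb bone, and RNA was taken at days 5 and 3. One genotype was LysM-Cre;Rosa26-Runx1tg/+, in which Cre from the lysozyme 2 locus of myeloid cells is meant to switch on a Runx1 transgene at Rosa26, and the control genotype was Rosa26-Runx1tg/+, which carries the same transgene without Cre. Each genotype was grown either with RANKL at 50 ng/mL and M-CSF at 30 ng/mL or with M-CSF alone, and the sources used here do not give its dose in those wells. Genotype, medium and day gave 8 groups of 3 libraries, numbered 1 to 3 in the labels, and 24 libraries in all. The labels do not say whether the numbers stand for animals, cultures or days, and give neither age nor sex, so the p-values measure only the spread between these libraries, which may in part be technical.

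Interferons are secreted proteins that cells release on sensing viral nucleic acid. Type I interferons bind the receptor chains Ifnar1 and Ifnar2, the kinases Jak1 and Tyk2 pass the signal on by phosphorylation, and a complex that holds Stat2 and Irf9 binds the interferon-stimulated response element (ISRE) near the genes described here. Macrophages are known to keep a low level of this programme running without infection, and in mouse osteoclast precursors interferon-β is known as a brake on RANKL signalling.

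Library totals were 18975750 to 36523995 counts, with 1 library above 24268936, number 3 of the libraries labelled LysM-Cre under RANKL at day 5. A single read was worth 0.0286 to 0.0542 CPM, the unit of level used here, in which counts are scaled to a common library size after TMM scaling. Runx1 itself was not higher in the libraries labelled LysM-Cre by edgeR's quasi-likelihood test. Its log2 fold changes over control were 0.23 (95% interval -0.05 to 0.51) under RANKL at day 5, 0.17 (-0.12 to 0.45) under RANKL at day 3, 0 (-0.28 to 0.29) in M-CSF alone at day 5 and 0.12 (-0.17 to 0.4) in M-CSF alone at day 3 (adjusted p = 1 for all 4). The 4 libraries labelled LysM-Cre with number 3 stood apart from the other 20 in the sex-linked genes, with 542 to 847 counts of Y-linked genes and 2 to 12 counts of Xist, against 0 to 1 and 14963 to 28379 in the others. Counts of called genes for medium, day and genotype are therefore also given without them, but single-gene values and list medians are not. Mitochondrial genes took 3.15% to 4.57% of counts under RANKL and 1.52% to 2.42% in M-CSF alone, and their part in the results was not tested.

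Promoters of these genes were searched for the ISRE, and RefSeq windows from 250 bases before to 50 bases after the gene start (GRCm38.p6) were available for 32 of the 43 genes. The ISRE core was searched as GAAA, any 2 bases and GAAA, which reads TTTC, any 2 bases and TTTC on the other strand, and overlapping matches were allowed. It occurred in 23 of 39 windows of the listed genes (59%, some genes having more than 1 window), and in 1131 of 32851 windows of all genes (3.44%). The gamma-interferon activated site, searched as TTCNNNGAA on both strands, occurred in 8 of 39 windows (20.5%) and in 2726 of 32851 (8.3%). The following windows are shown because they cover genes whose levels are described next, from clustered copies of the core to a single copy. Each runs 5′ to 3′ on the gene's own strand, the capitals mark the core, and adjoining or overlapping cores form a single run of capitals. Isg15 lies at chr4:156200860-156200911 on the minus strand, Ifit1 at chr19:34640770-34640828 on the plus strand, Oas1a at chr5:120907515-120907560 and Oas1g at chr5:120887601-120887646 on the minus strand, Bst2 at chr8:71537572-71537617 on the minus strand, Rsad2 at chr12:26456548-26456587 on the minus strand, Stat2 at chr10:128270261-128270300 on the plus strand, Irgm1 at chr11:48871420-48871465 on the minus strand, and Gbp7 at chr3:142530268-142530307 on the plus strand.
Isg15: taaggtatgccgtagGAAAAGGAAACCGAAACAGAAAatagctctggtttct
Ifit1: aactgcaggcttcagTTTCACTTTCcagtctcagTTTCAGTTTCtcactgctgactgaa
Oas1a: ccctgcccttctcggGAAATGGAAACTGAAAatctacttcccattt
Oas1g: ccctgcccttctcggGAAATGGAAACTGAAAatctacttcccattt
Bst2: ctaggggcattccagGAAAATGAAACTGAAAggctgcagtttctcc
Rsad2: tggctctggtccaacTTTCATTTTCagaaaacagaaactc
Stat2: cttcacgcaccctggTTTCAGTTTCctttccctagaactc
Irgm1: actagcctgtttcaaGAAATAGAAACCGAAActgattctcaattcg
Gbp7: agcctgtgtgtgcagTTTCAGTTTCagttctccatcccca

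The Isg15 window held 3 overlapping cores beginning 78 bases before the start, and Ifit1 had 2 separate cores beginning 104 bases before it. Oas1a and Oas1g, neighbouring copies on chromosome 5, shared the same letters throughout the printed stretch. No core was found in the windows of Cmpk2, Dtx3l, Ifi35, Ifi44, Ifit2, Isg20, Oasl1, Oasl2, Samd9l, Tap1 and Xaf1, which says only that these letters are not in the 300-base stretch searched.

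Per kilobase of gene length the listed genes covered a wide range of levels. Averaged over the 24 libraries, Bst2, the membrane protein tetherin that holds budding virus on the cell surface, was highest at 217 CPM per kilobase, followed by Ifi27l2a, a small interferon-induced mitochondrial protein, at 159 CPM per kilobase. Lowest were Isg20, an exonuclease that degrades RNA, at 0.491 CPM per kilobase, and Ifi44 at 0.38 CPM per kilobase. Ifi44 had 0 counts in library number 3 labelled LysM-Cre under RANKL at day 3, and its values there rest on few reads. The range across libraries also differed widely. Oasl2 varied 157-fold between its highest and lowest library, and Ifit3 164-fold with 11 reads in its lowest. The lowest Zbp1 library held 2 reads, so no fold is given for it. By contrast Tap1 varied 2.9-fold and Eif2ak2 3.15-fold.

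**Figure D1:**
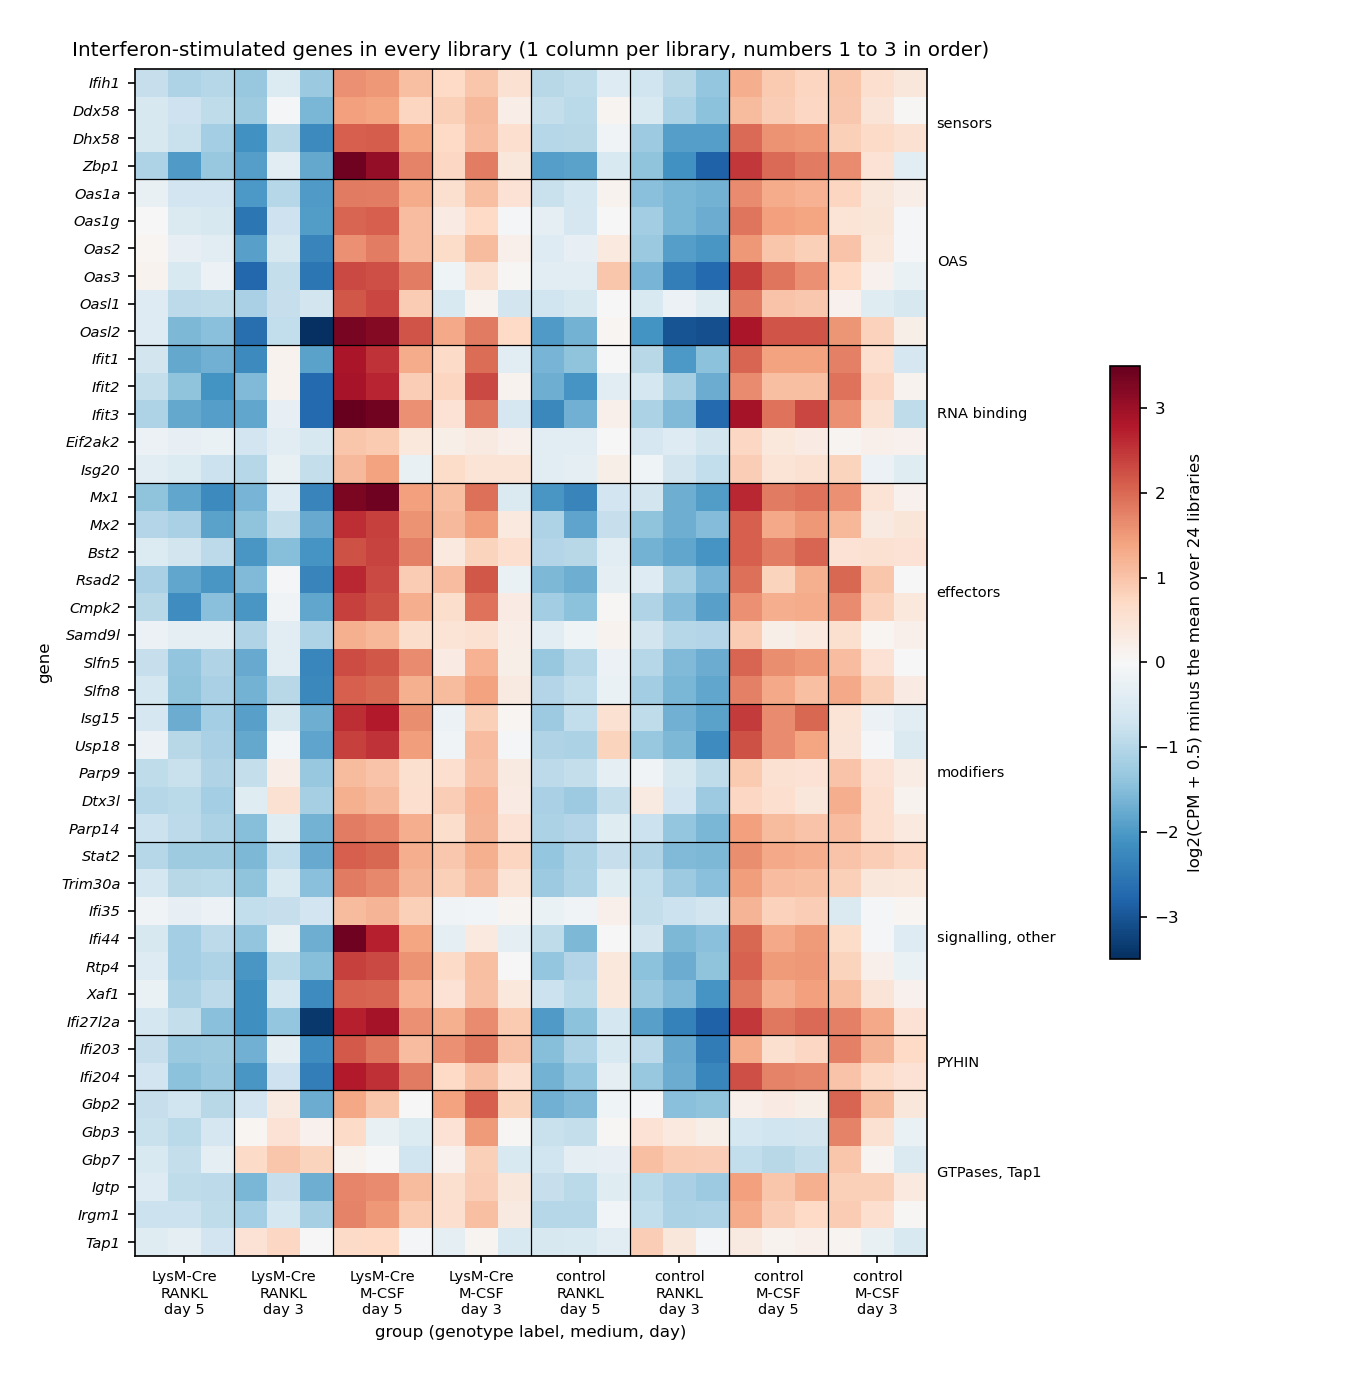
Each row is 1 of the 43 genes and each column 1 of the 24 libraries, coloured by log2(CPM + 0.5) minus that gene's mean over all libraries. Columns run by genotype label, medium and day with numbers 1 to 3 from left to right, and most rows are blue under RANKL and red in M-CSF alone at day 5, while Gbp3, Gbp7 and Tap1 differ from the rest.

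The first comparison asks how the programme stood in cells differentiating under RANKL against macrophages kept in M-CSF alone. Nearly the whole list was lower under RANKL, in both genotypes and on both days. At day 5, 41 of the 43 genes fell in libraries labelled LysM-Cre and 39 fell in control libraries, and none rose. At day 3, 38 fell and 1 rose in each genotype, the riser in both being Tap1. The median log2 fold change over the list was -2.78 at day 5 and -2.12 at day 3 in libraries labelled LysM-Cre, and -2.03 at day 5 and -2.08 at day 3 in control libraries, while the median over all tested genes lay between -0.03 and 0.03. Calls are edgeR quasi-likelihood tests with a Benjamini-Hochberg adjusted p under 0.05 over 15035 genes.

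RANKL changed much of the transcriptome, so these counts are set against all tested genes. The list was chosen with earlier results of these data known, so the shares describe it and are not an independent test. In libraries labelled LysM-Cre at day 5, 52.4% of tested genes were called, 27.5% higher and 24.9% lower, against 95.3% of the list. At day 3 in the same genotype 59.2% were called, 29.1% higher and 30.1% lower, against 90.7% of the list. In control libraries 49.4% were called at day 5, 26.4% higher and 23.1% lower, and 59.1% at day 3, 29.5% higher and 29.7% lower, against 90.7% of the list on each day. All 3 RANKL libraries lay below all 3 M-CSF libraries for 42 of the listed genes in libraries labelled LysM-Cre at day 5 and 33 at day 3, where 30.6% and 29.1% of all tested genes did so. In control libraries this held for 41 genes at day 5 and 37 at day 3, where the shares of all tested genes were 30.3% and 30.5%. Without the 4 number 3 libraries labelled LysM-Cre, 41 genes were called at day 5 and 36 at day 3 in that genotype. In bulk RNA, fewer cells of a type and less RNA per cell cannot be told apart, in this and the later comparisons.

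**Figure D2:**
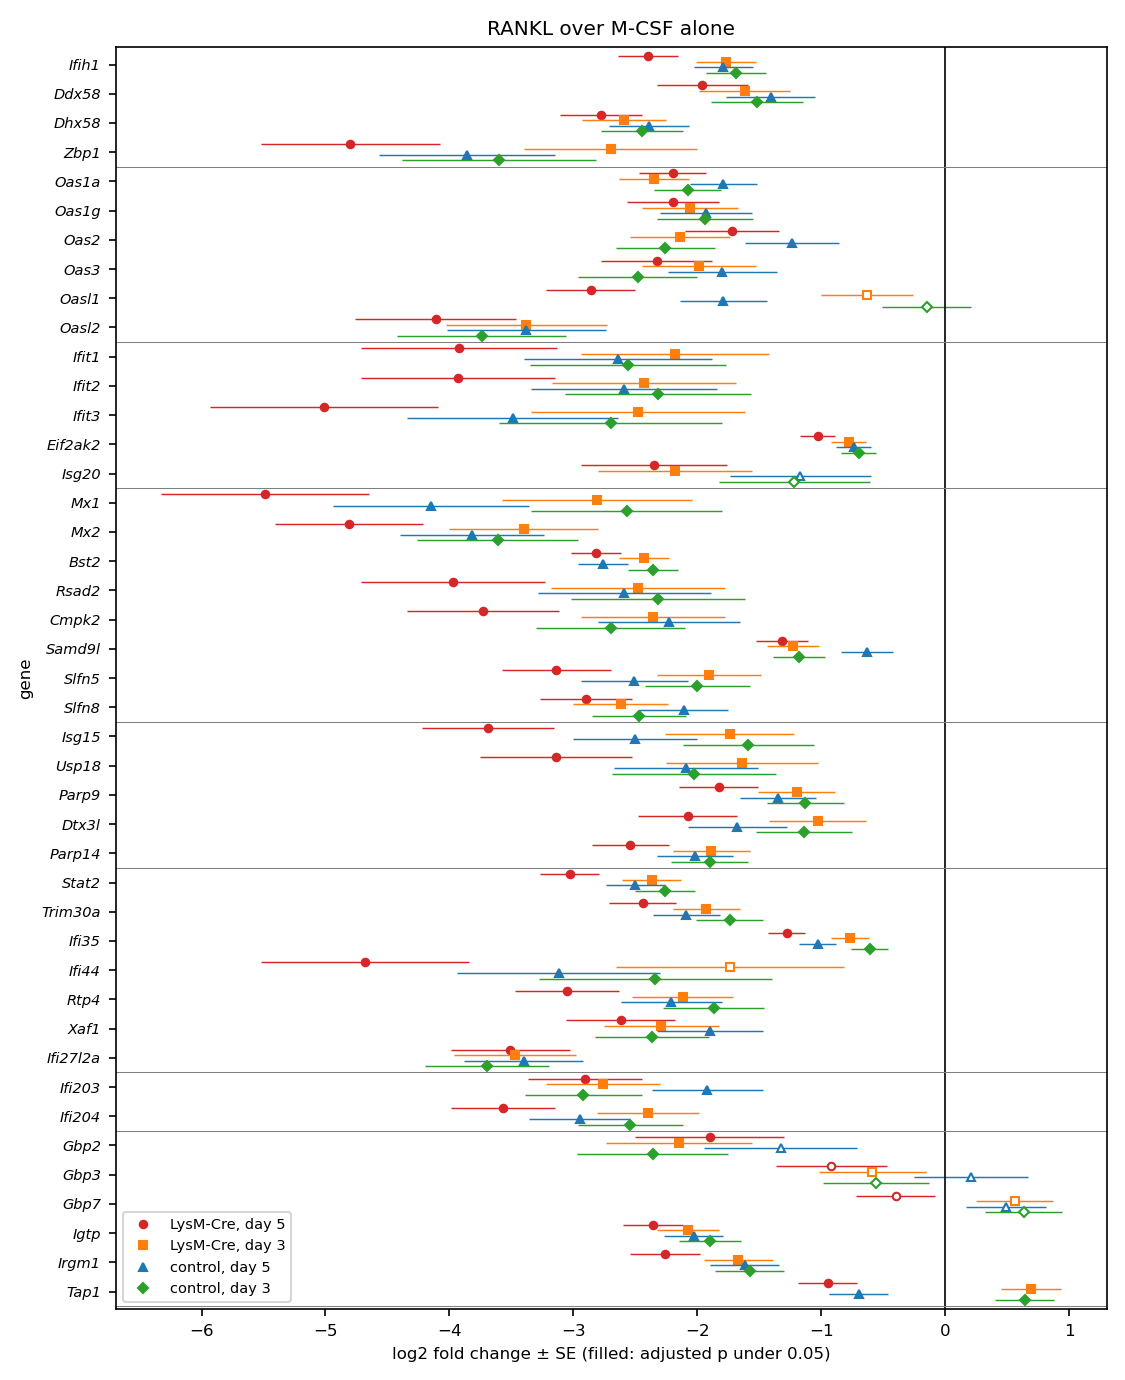
Log2 fold change of RANKL over M-CSF alone (x axis, bars ± SE) for each of the 43 genes (y axis, grouped by role), with 1 marker per genotype label and day and filled markers for an adjusted p under 0.05. Nearly all markers lie left of 0, Mx1 reaches -5.49 in libraries labelled LysM-Cre at day 5, and Gbp3 and Gbp7 have no filled marker.

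The 4 sensors fell in every RANKL comparison, with class medians of -2.59 and -2.18 at days 5 and 3 in libraries labelled LysM-Cre and -2.09 and -2.07 in control libraries. Ifih1 encodes MDA5, a helicase that recognises long viral RNA duplexes. At day 5 Ifih1 had 14.6, 12 and 12.7 CPM under RANKL and 79.6, 74.3 and 54.1 in M-CSF alone in libraries labelled LysM-Cre, and 12.8, 13.7 and 18.8 under RANKL and 63.2, 49.4 and 43.8 in M-CSF alone in control libraries. At day 3 it had 10, 18.4 and 10.2 CPM under RANKL and 42.1, 51.2 and 37.6 in M-CSF alone in libraries labelled LysM-Cre, and 15.7, 12.9 and 9.87 under RANKL and 51.2, 39.3 and 34.1 in M-CSF alone in control libraries. The RANKL libraries lay below the M-CSF libraries without overlap in each genotype and on each day. The fall was 5.29-fold (log2 -2.4 ± 0.24 SE, adjusted p = 5.96e-08) in libraries labelled LysM-Cre and 3.45-fold (log2 -1.79 ± 0.24, adjusted p = 2.75e-06) in control libraries at day 5.

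Ddx58 encodes RIG-I, the sensor of RNA with a triphosphate end. Its day 5 values were 31.6, 28.1 and 25.2 CPM under RANKL and 127, 123 and 79.3 in M-CSF alone in libraries labelled LysM-Cre, and 26, 24.2 and 49.7 under RANKL and 102, 85.8 and 77.1 in M-CSF alone in control libraries. Its day 3 values were 19.4, 44.3 and 15 CPM under RANKL and 83.2, 104 and 55 in M-CSF alone in libraries labelled LysM-Cre, and 32.4, 21.3 and 17 under RANKL and 90, 64.4 and 48.4 in M-CSF alone in control libraries. Groups again did not overlap, although library number 2 labelled LysM-Cre under RANKL at day 3, at 44.3 CPM, came close to the lowest M-CSF value of 55. Ddx58 fell 3.89-fold in libraries labelled LysM-Cre and 2.65-fold in control libraries at day 5 (edgeR adjusted p = 0.000149 and adjusted p = 0.00294). Dhx58, which encodes the related regulator LGP2, fell by 2.78 on the log2 scale in libraries labelled LysM-Cre and by 2.39 in control libraries at day 5. Zbp1, a sensor of Z-form nucleic acid that can trigger necroptosis, fell by 4.8 and by 3.86 in the same comparisons.

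The oligoadenylate synthetases make short 2′-5′ linked adenylates that activate RNase L, which cuts RNA. In this class 5 of the 6 genes fell in all 4 RANKL comparisons. Oas3, the member that responds to long RNA duplexes, had day 5 levels of 43, 27.3 and 34.3 CPM under RANKL and 198, 190 and 138 in M-CSF alone in libraries labelled LysM-Cre, and 30.6, 30.4 and 77.6 under RANKL and 215, 146 and 121 in M-CSF alone in control libraries. Oas3 at day 3 had 5.51, 22 and 6.43 CPM under RANKL and 35.4, 57.8 and 40.4 in M-CSF alone in libraries labelled LysM-Cre, and 12.6, 7.02 and 5.56 under RANKL and 64.2, 44.1 and 33.6 in M-CSF alone in control libraries. Under RANKL at day 5 the control library number 3 was at 77.6 CPM, above the 30.6 and 30.4 CPM of its companions and below every M-CSF library of that day. Oas3 fell 5.03-fold in libraries labelled LysM-Cre and 3.47-fold in control libraries at day 5, and 3.97-fold and 5.6-fold at day 3 (edgeR adjusted p between 0.000148 and 0.0021).

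Oasl2, an oligoadenylate synthetase-like protein, had one of the widest ranges of the list. Its levels at day 5 were 22, 9.76 and 10.6 CPM under RANKL and 306, 284 and 141 in M-CSF alone in libraries labelled LysM-Cre, and 7.22, 9.32 and 31.8 under RANKL and 222, 141 and 140 in M-CSF alone in control libraries. Its levels at day 3 were 4.39, 16.5 and 1.95 CPM under RANKL and 76.4, 108 and 49.6 in M-CSF alone in libraries labelled LysM-Cre, and 6.67, 3.3 and 3.11 under RANKL and 88.4, 53.1 and 35 in M-CSF alone in control libraries. The highest RANKL library in any group, control number 3 at day 5 with 31.8 CPM, was still below the lowest M-CSF library at 35 CPM. Oasl2 fell 17.3-fold in libraries labelled LysM-Cre at day 5 (log2 -4.11 ± 0.65, adjusted p = 2.4e-05), and 10.4-fold in control libraries (log2 -3.38 ± 0.64, adjusted p = 0.00016). Oas1a, Oas1g and Oas2, the other enzymes of the class, fell by 1.24 to 2.35 on the log2 scale over the 4 comparisons. Oasl1, a mouse protein known to hold back translation of the transcription factor Irf7, was the exception and is described with the comparison of days.

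Among the genes that act on RNA or translation, the 3 Ifit genes fell in all 4 comparisons, with wide standard errors. Ifit1 binds viral RNA whose cap lacks a methyl group. Ifit1 at day 5 stood at 3.71, 1.4 and 1.54 CPM under RANKL and 46.9, 37.6 and 15.7 in M-CSF alone in libraries labelled LysM-Cre, and 1.63, 1.98 and 5.99 under RANKL and 26.4, 16.8 and 16.9 in M-CSF alone in control libraries. Ifit1 at day 3 stood at 0.904, 6.69 and 1.31 CPM under RANKL and 9.86, 25.1 and 4.58 in M-CSF alone in libraries labelled LysM-Cre, and 2.83, 1.14 and 1.92 under RANKL and 22, 9.46 and 3.83 in M-CSF alone in control libraries. At day 3 library number 2 labelled LysM-Cre under RANKL, at 6.69 CPM, was above M-CSF library number 3 at 4.58 CPM, so these groups overlapped, and the other 3 comparisons did not. The fall was 15.2-fold (log2 -3.92 ± 0.79, adjusted p = 0.000327) in libraries labelled LysM-Cre at day 5 and 6.24-fold (log2 -2.64 ± 0.76, adjusted p = 0.00644) in control libraries. At day 3 it was 4.54-fold (adjusted p = 0.0178) and 5.89-fold (adjusted p = 0.00856), and across the alternative analyses the adjusted p reached 0.172 and 0.0898.

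Ifit2, a partner of Ifit1 in complexes on viral RNA, had day 5 levels of 5.41, 3.43 and 1.97 CPM under RANKL and 76.8, 66.4 and 18.6 in M-CSF alone in libraries labelled LysM-Cre, and 2.7, 2.02 and 7.58 under RANKL and 32.3, 21 and 21 in M-CSF alone in control libraries. Ifit2 at day 3 had 3.1, 10.8 and 1.1 CPM under RANKL and 17.2, 51.2 and 10.8 in M-CSF alone in libraries labelled LysM-Cre, and 6.37, 4.18 and 2.64 under RANKL and 38.6, 16.8 and 11 in M-CSF alone in control libraries. Its RANKL libraries lay below its M-CSF libraries without overlap, by a narrow margin at day 3 in libraries labelled LysM-Cre, where number 2 under RANKL and number 3 in M-CSF alone both had 10.8 CPM after rounding. Ifit2 fell 15.3-fold and 6.02-fold at day 5 in libraries labelled LysM-Cre and in control libraries (edgeR adjusted p = 0.000279 and adjusted p = 0.0072). Ifit3, which stabilises Ifit1 on RNA in human cells, fell by 5.01 in libraries labelled LysM-Cre at day 5 and fell by 3.49 in control libraries.

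Eif2ak2 encodes PKR, a kinase that stops translation when it binds RNA duplexes. At day 5 Eif2ak2 had 63.4, 60.1 and 62.1 CPM under RANKL and 145, 139 and 94.8 in M-CSF alone in libraries labelled LysM-Cre, and 55.5, 55.8 and 72.2 under RANKL and 121, 95 and 89.2 in M-CSF alone in control libraries. At day 3 Eif2ak2 had 46.1, 56.9 and 49.1 CPM under RANKL and 85.2, 91.9 and 83.2 in M-CSF alone in libraries labelled LysM-Cre, and 48.6, 53.2 and 46.9 under RANKL and 77.8, 82.3 and 82 in M-CSF alone in control libraries. The groups did not overlap, but the change was among the smallest of the list. It fell 2.04-fold in libraries labelled LysM-Cre (log2 -1.03 ± 0.14, adjusted p = 2.84e-06) and 1.67-fold in control libraries (log2 -0.74 ± 0.14, adjusted p = 0.00016) at day 5. Isg20 fell by 2.35 at day 5 and by 2.18 at day 3 in libraries labelled LysM-Cre. In control libraries Isg20 had log2 fold changes of -1.17 (adjusted p = 0.0955) and -1.22 (adjusted p = 0.0925), which did not pass the threshold.

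All 8 effectors on virus particles, replication and nucleotides fell in every RANKL comparison. The median of this class was -3.44 at day 5 and -2.46 at day 3 in libraries labelled LysM-Cre, and -2.55 and -2.42 in control libraries. Bst2 at day 5 had 85.8, 76.4 and 63.9 CPM under RANKL and 567, 620 and 408 in M-CSF alone in libraries labelled LysM-Cre, and 58.6, 61.4 and 90.7 under RANKL and 517, 420 and 490 in M-CSF alone in control libraries. Bst2 at day 3 had 28.9, 42.6 and 28.3 CPM under RANKL and 153, 205 and 179 in M-CSF alone in libraries labelled LysM-Cre, and 37.5, 33.5 and 28.5 under RANKL and 170, 175 and 169 in M-CSF alone in control libraries. The 2 media were far apart and the replicates close together. It fell 7.06-fold in libraries labelled LysM-Cre (log2 -2.82 ± 0.2, adjusted p = 2.74e-10) and 6.77-fold in control libraries (log2 -2.76 ± 0.2, adjusted p = 3.3e-10) at day 5, the smallest adjusted p-values of the list.

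Slfn5 is a member of the Schlafen family of interferon-induced growth and antiviral regulators. It had day 5 levels of 43.1, 28.8 and 36 CPM under RANKL and 371, 341 and 237 in M-CSF alone in libraries labelled LysM-Cre, and 30, 37.6 and 65.9 under RANKL and 310, 234 and 216 in M-CSF alone in control libraries. Slfn5 at day 3 had 21.8, 58 and 15.1 CPM under RANKL and 91.9, 176 and 86.9 in M-CSF alone in libraries labelled LysM-Cre, and 37.3, 25.5 and 22.5 under RANKL and 159, 107 and 74.7 in M-CSF alone in control libraries. No RANKL library reached an M-CSF library of the same genotype and day. Slfn5 fell 8.79-fold in libraries labelled LysM-Cre and 5.69-fold in control libraries at day 5 (edgeR adjusted p = 4.67e-06 and adjusted p = 5.2e-05), and 3.75-fold and 3.99-fold at day 3. The related Slfn8 fell by 2.11 to 2.9 on the log2 scale.

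Mx1, a dynamin-like GTPase that restricts influenza virus in mice with an intact allele, showed the largest fall. At day 5 Mx1 had 1.15, 0.727 and 0.429 CPM under RANKL and 42.6, 45.6 and 11.4 in M-CSF alone in libraries labelled LysM-Cre, and 0.559, 0.376 and 2.27 under RANKL and 26.7, 14.8 and 15.8 in M-CSF alone in control libraries. At day 3 Mx1 had 0.904, 2.72 and 0.381 CPM under RANKL and 8.53, 16.2 and 2.59 in M-CSF alone in libraries labelled LysM-Cre, and 2.28, 0.826 and 0.623 under RANKL and 12.8, 5.55 and 4.35 in M-CSF alone in control libraries. Most RANKL libraries were at about 1 CPM or below, and at day 3 library number 2 labelled LysM-Cre, at 2.72 CPM, overlapped M-CSF library number 3 at 2.59 CPM. Under RANKL at day 5 the Mx1 values rest on 25, 14 and 15 reads in libraries labelled LysM-Cre. In control libraries they rest on 12, 8 and 50 reads. Mx1 fell 44.8-fold in libraries labelled LysM-Cre (log2 -5.49 ± 0.84, adjusted p = 1.48e-05) and 17.7-fold in control libraries (log2 -4.15 ± 0.79, adjusted p = 0.000196) at day 5. Mx2, annotated in GENCODE M21 as a polymorphic pseudogene, fell by 4.81 and by 3.82 in those comparisons, values that rest on 2 to 16 reads per RANKL library.

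Rsad2 encodes viperin, which makes a chain-ending nucleotide from CTP, and Cmpk2 beside it encodes a mitochondrial nucleotide kinase. Rsad2 at day 5 had 3.85, 2.23 and 1.83 CPM under RANKL and 58.7, 46.6 and 17.2 in M-CSF alone in libraries labelled LysM-Cre, and 2.7, 2.45 and 7.08 under RANKL and 35.9, 16 and 22.2 in M-CSF alone in control libraries. Rsad2 at day 3 had 2.76, 8.6 and 1.44 CPM under RANKL and 19.7, 42.9 and 7.69 in M-CSF alone in libraries labelled LysM-Cre, and 6.5, 3.77 and 2.59 under RANKL and 37.7, 18.1 and 9.07 in M-CSF alone in control libraries. In M-CSF alone at day 3 the 3 libraries of a genotype spread over a several-fold range, and the RANKL and M-CSF libraries labelled LysM-Cre overlapped on that day. Rsad2 fell 15.7-fold in libraries labelled LysM-Cre and 6.04-fold in control libraries at day 5 (edgeR adjusted p = 0.00015 and adjusted p = 0.00438). Cmpk2 fell 13.3-fold and 4.68-fold. Samd9l, a growth and antiviral regulator of the endosomal system, changed least in the class, by 2.5-fold in libraries labelled LysM-Cre and 1.55-fold in control libraries at day 5.

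Isg15, a ubiquitin-like protein joined to other proteins during the interferon response, had day 5 levels of 4.63, 1.82 and 2.86 CPM under RANKL and 45.8, 52 and 23.1 in M-CSF alone in libraries labelled LysM-Cre, and 2.66, 3.72 and 10.5 under RANKL and 41.5, 23.8 and 30.5 in M-CSF alone in control libraries. Isg15 at day 3 had 1.55, 4.73 and 1.86 CPM under RANKL and 6.2, 13.2 and 7.52 in M-CSF alone in libraries labelled LysM-Cre, and 3.63, 1.91 and 1.58 under RANKL and 10.2, 6.11 and 5.44 in M-CSF alone in control libraries. The media did not overlap, and control library number 3 under RANKL at day 5, at 10.5 CPM, was the highest RANKL library. Isg15 fell 12.9-fold in libraries labelled LysM-Cre (log2 -3.69 ± 0.53, adjusted p = 6.73e-06) and 5.65-fold in control libraries (log2 -2.5 ± 0.5, adjusted p = 0.000308) at day 5. The falls at day 3 were 3.35-fold (adjusted p = 0.00736) and 3.01-fold (adjusted p = 0.0148), with adjusted p-values of up to 0.0537 and 0.0814 over the alternative analyses. Usp18, the protease that removes Isg15 and binds the receptor chain Ifnar2 to limit signalling, fell 8.79-fold and 4.25-fold at day 5.

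Parp14 adds single ADP-ribose units to proteins. Parp14 had day 5 levels of 72.8, 65.2 and 57.1 CPM under RANKL and 432, 401 and 298 in M-CSF alone in libraries labelled LysM-Cre, and 57.4, 59.8 and 92.3 under RANKL and 333, 266 and 248 in M-CSF alone in control libraries. Its day 3 levels were 43.8, 92.1 and 38.6 CPM under RANKL and 191, 282 and 174 in M-CSF alone in libraries labelled LysM-Cre, and 73, 47.7 and 40.3 under RANKL and 260, 185 and 155 in M-CSF alone in control libraries. Groups were fully separated. Parp14 fell 5.8-fold in libraries labelled LysM-Cre and 4.05-fold in control libraries at day 5 (edgeR adjusted p = 9.29e-07 and adjusted p = 1.41e-05).

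Dtx3l, a ubiquitin ligase that works in a complex with Parp9, had day 5 levels of 22, 22.9 and 19.2 CPM under RANKL and 106, 98.6 and 67 in M-CSF alone in libraries labelled LysM-Cre, and 19.8, 17.9 and 24.5 under RANKL and 73.5, 67.2 and 58.3 in M-CSF alone in control libraries. Dtx3l at day 3 had 32.9, 64.6 and 19.5 CPM under RANKL and 81.2, 104 and 54.1 in M-CSF alone in libraries labelled LysM-Cre, and 54.7, 27.8 and 18 under RANKL and 108, 66.3 and 47.8 in M-CSF alone in control libraries. The day 3 groups overlapped in both genotypes. Dtx3l fell 4.24-fold and 3.2-fold at day 5 (edgeR adjusted p = 0.000203 in libraries labelled LysM-Cre and 0.00154 in control libraries). At day 3 the falls were 2.05-fold and 2.2-fold (adjusted p = 0.0273 and adjusted p = 0.0169), and the adjusted p reached 0.145 and 0.133 over the alternative analyses. Parp9 and Dtx3l overlap on opposite strands of chromosome 16, as do Tap1 and Psmb9 on chromosome 17, and the sources used here do not give the strand setting of the counting, so reads from each such pair cannot be told apart with certainty.

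Among the 7 signalling and other induced proteins, all fell in every comparison except Ifi44 in libraries labelled LysM-Cre at day 3 (log2 -1.74 ± 0.92, adjusted p = 0.11). Trim30a, a tripartite motif protein, had day 5 levels of 45.7, 35.2 and 35.9 CPM under RANKL and 249, 224 and 160 in M-CSF alone in libraries labelled LysM-Cre, and 28.8, 33.2 and 52.6 under RANKL and 193, 149 and 146 in M-CSF alone in control libraries. Trim30a at day 3 had 26, 48.2 and 25.2 CPM under RANKL and 126, 155 and 98.3 in M-CSF alone in libraries labelled LysM-Cre, and 38.1, 28.5 and 25.3 under RANKL and 126, 91.7 and 90 in M-CSF alone in control libraries. The groups were separated on each day. Trim30a fell 5.43-fold and 4.26-fold at day 5 in libraries labelled LysM-Cre and in control libraries (edgeR adjusted p = 2.46e-07 and adjusted p = 1.77e-06).

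Ifi27l2a had day 5 levels of 22.9, 19.7 and 12.5 CPM under RANKL and 239, 274 and 110 in M-CSF alone in libraries labelled LysM-Cre, and 8.58, 12.8 and 22.9 under RANKL and 199, 129 and 142 in M-CSF alone in control libraries. Ifi27l2a at day 3 had 7.62, 13.6 and 2.96 CPM under RANKL and 85.9, 113 and 67.6 in M-CSF alone in libraries labelled LysM-Cre, and 9.24, 6.45 and 4.6 under RANKL and 123, 90.2 and 51.3 in M-CSF alone in control libraries. Its fall was similar in the 4 comparisons, 11.4-fold and 11.1-fold at days 5 and 3 in libraries labelled LysM-Cre, and 10.6-fold and 13-fold in control libraries (edgeR adjusted p between 2.26e-06 and 5.57e-06). Stat2, a subunit of the complex that binds the ISRE, fell 8.15-fold in libraries labelled LysM-Cre and 5.66-fold in control libraries at day 5. Ifi35, a partner of Nmi, changed least in the class, by 2.42-fold and 2.04-fold. The rest of the class at day 5 in libraries labelled LysM-Cre comprised Rtp4, a chaperone-like protein known to bind antiviral factors, which fell by 3.05, Xaf1, a pro-apoptotic zinc-finger protein, which fell by 2.62, and Ifi44, which fell by 4.68.

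Both PYHIN genes, relatives of the DNA sensor AIM2, fell in every comparison. Ifi204 at day 5 had 16.4, 9.39 and 10.5 CPM under RANKL and 182, 157 and 93.6 in M-CSF alone in libraries labelled LysM-Cre, and 8.11, 10 and 20.8 under RANKL and 127, 88.3 and 85.3 in M-CSF alone in control libraries. Ifi204 at day 3 had 5.99, 15.9 and 4.53 CPM under RANKL and 43.4, 54.6 and 39.9 in M-CSF alone in libraries labelled LysM-Cre, and 10.2, 7.54 and 5.03 under RANKL and 53.1, 41.9 and 38 in M-CSF alone in control libraries. The media were separated without overlap. Ifi204 fell 11.9-fold in libraries labelled LysM-Cre and 7.71-fold in control libraries at day 5 (edgeR adjusted p = 5.08e-07 and adjusted p = 4.89e-06).

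Ifi203 overlaps the related gene Mndal on the same strand, and the counting may have split their reads. Ifi203 at day 5 had 14.3, 10 and 10.4 CPM under RANKL and 113, 93.4 and 54.1 in M-CSF alone in libraries labelled LysM-Cre, and 8.67, 11.7 and 17.2 under RANKL and 62.2, 37.3 and 42.3 in M-CSF alone in control libraries. Ifi203 at day 3 had 7.54, 20 and 5.16 CPM under RANKL and 77.9, 91.4 and 50.8 in M-CSF alone in libraries labelled LysM-Cre, and 13.2, 7.02 and 4.22 under RANKL and 87.6, 57.7 and 41 in M-CSF alone in control libraries. It fell 7.51-fold and 3.78-fold at day 5, and 6.79-fold and 7.58-fold at day 3, in libraries labelled LysM-Cre and in control libraries. RANKL and M-CSF libraries did not overlap.

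The interferon-induced GTPases and the peptide transporter were the least uniform class, with medians of -1.42 and -1.13 at days 5 and 3 in libraries labelled LysM-Cre and -1.02 and -1.07 in control libraries. Irgm1, an immunity-related GTPase of membranes and autophagy, had day 5 levels of 20.9, 21.1 and 19.1 CPM under RANKL and 121, 103 and 67.9 in M-CSF alone in libraries labelled LysM-Cre, and 17.7, 17.5 and 33.7 under RANKL and 88.1, 65.3 and 58 in M-CSF alone in control libraries. Irgm1 at day 3 had 15.4, 23.3 and 15.6 CPM under RANKL and 54, 74 and 44.5 in M-CSF alone in libraries labelled LysM-Cre, and 19.5, 16.3 and 16.8 under RANKL and 66.7, 54.3 and 36.8 in M-CSF alone in control libraries. The groups were separated. Irgm1 fell 4.78-fold in libraries labelled LysM-Cre and 3.07-fold in control libraries at day 5 (edgeR adjusted p = 1.09e-06 and adjusted p = 5.68e-05). Igtp, another such GTPase that shares part of its locus with Irgm2, fell by 2.36 and by 2.03.

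The guanylate-binding proteins Gbp2, Gbp3 and Gbp7, which attack the membranes of intracellular pathogens, were less uniform. Gbp2 fell in libraries labelled LysM-Cre by 1.9 at day 5 and by 2.15 at day 3, and in control libraries by 2.36 at day 3, while its day 5 value in control libraries was -1.33 (adjusted p = 0.0792). Gbp3 passed the threshold in no RANKL comparison, with log2 fold changes of -0.92 and -0.59 at days 5 and 3 in libraries labelled LysM-Cre and 0.21 and -0.56 in control libraries. Gbp7 likewise passed in none, at -0.4 and 0.56 in libraries labelled LysM-Cre and 0.49 and 0.63 in control libraries. For Gbp7 the 3 control libraries at day 5 had 13.2, 17.2 and 17.8 CPM under RANKL, all above the 11.7, 10.7 and 11.9 CPM of M-CSF alone.

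Tap1, a subunit of the transporter that carries peptides to MHC class I, changed direction with the day. At day 5 Tap1 had 52.7, 56.5 and 44.4 CPM under RANKL and 113, 115 and 68.5 in M-CSF alone in libraries labelled LysM-Cre, and 48.1, 49.3 and 54.7 under RANKL and 89.1, 77.3 and 81 in M-CSF alone in control libraries. At day 3 Tap1 had 102, 119 and 70.8 CPM under RANKL and 56.5, 75.4 and 49 in M-CSF alone in libraries labelled LysM-Cre, and 129, 93.4 and 67.2 under RANKL and 76.6, 59.9 and 49.4 in M-CSF alone in control libraries. At day 5 the RANKL libraries were all below the M-CSF libraries, and at day 3 most were above them, with overlap in both genotypes. At day 5 it fell by 0.95 ± 0.24 SE (adjusted p = 0.00213) in libraries labelled LysM-Cre and by 0.7 ± 0.24 (adjusted p = 0.0182) in control libraries, where it reached 0.077 over the alternative analyses. At day 3 it rose 1.61-fold (adjusted p = 0.0163) and 1.56-fold (adjusted p = 0.0248), and over the alternative analyses the adjusted p reached 0.0978 and 0.215.

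**Figure D3:**
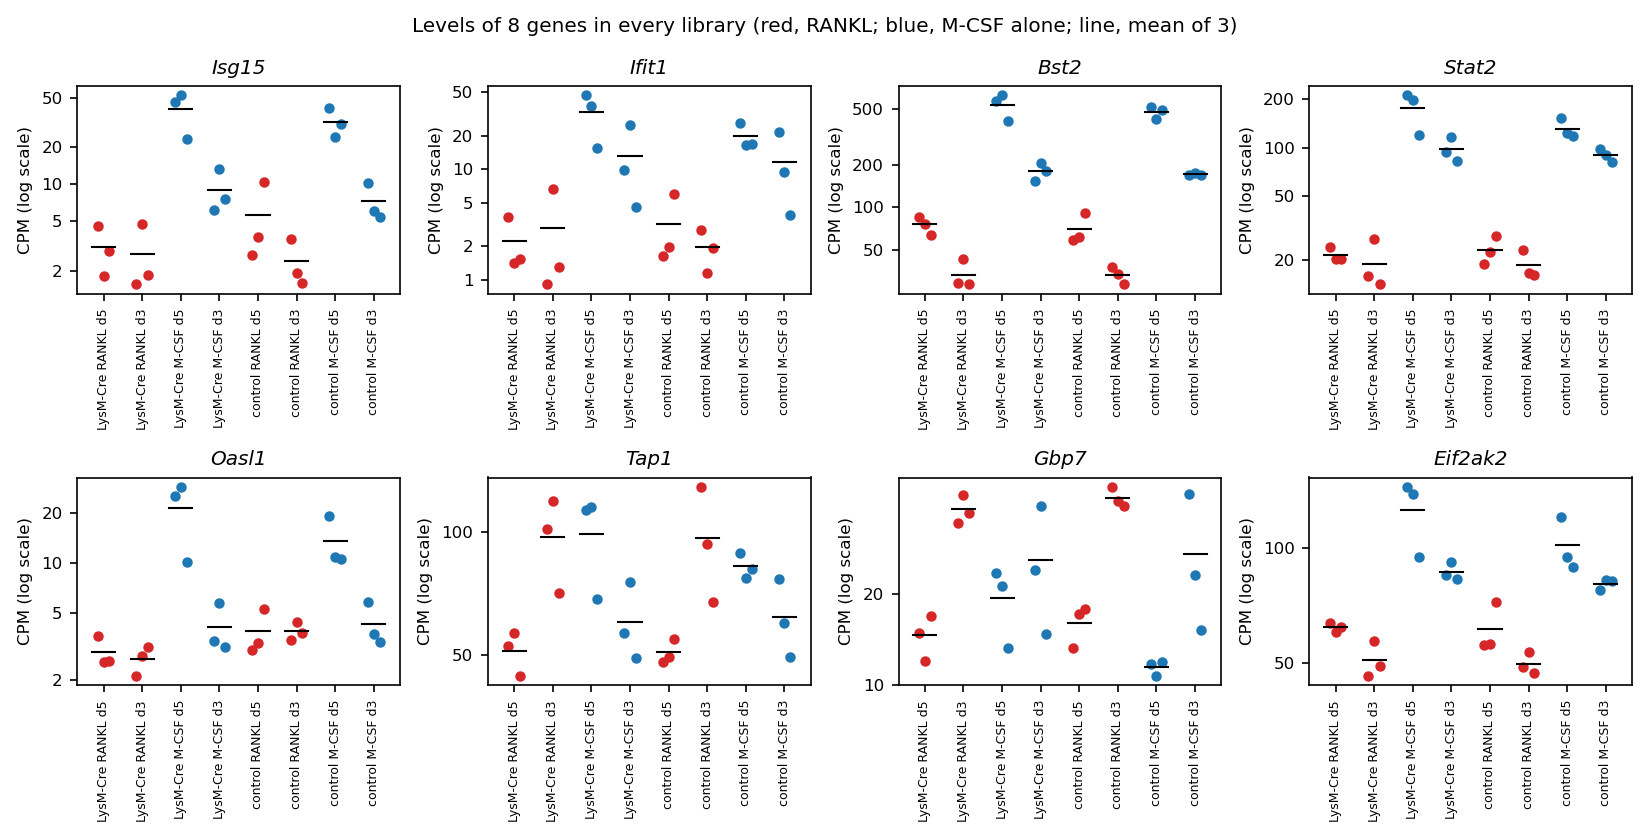
CPM on a log axis for 8 genes in every library, with groups on the x axis, 1 point per library and a line at the mean of 3 libraries. Isg15, Ifit1, Bst2 and Stat2 are lower under RANKL, Eif2ak2 is lower by a smaller margin, Oasl1 is high in M-CSF alone at day 5, Tap1 is low under RANKL at day 5, and the group means of Gbp7 are highest under RANKL at day 3.

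The second comparison asks how the levels at day 5 stood against those at day 3. More of the list was higher than lower at day 5 in both media. In M-CSF alone, 18 genes rose and 0 fell in libraries labelled LysM-Cre, where 14.3% of tested genes were called, 7.17% higher and 7.08% lower. In control libraries in M-CSF alone 12 rose and 2 fell, against 23.7% called, 12.2% higher and 11.5% lower. Under RANKL 7 rose and 2 fell in libraries labelled LysM-Cre, against 33.2% called, 17.6% higher and 15.6% lower, a share of the list (20.9%) below that of all tested genes. Under RANKL in control libraries 11 rose and 2 fell (30.2% of the list), close to the 26.8% of all tested genes called, 14.1% higher and 12.7% lower. Medians over the list were 0.95 and 0.69 in M-CSF alone in libraries labelled LysM-Cre and in control libraries, and 0.19 and 0.72 under RANKL. Without number 2 of the libraries labelled LysM-Cre under RANKL at day 3 the 0.19 became 0.76, and without control number 3 under RANKL at day 5 the 0.72 became 0.17. Without the 4 number 3 libraries labelled LysM-Cre, 14 genes were called in M-CSF alone and 5 under RANKL in that genotype. These counts also turn on single libraries. Leaving out each library in turn gave 9 to 26 calls in libraries labelled LysM-Cre and 7 to 13 in control libraries in M-CSF alone, and 5 to 15 and 7 to 14 under RANKL, with the libraries named in the closing section.

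**Figure D4:**
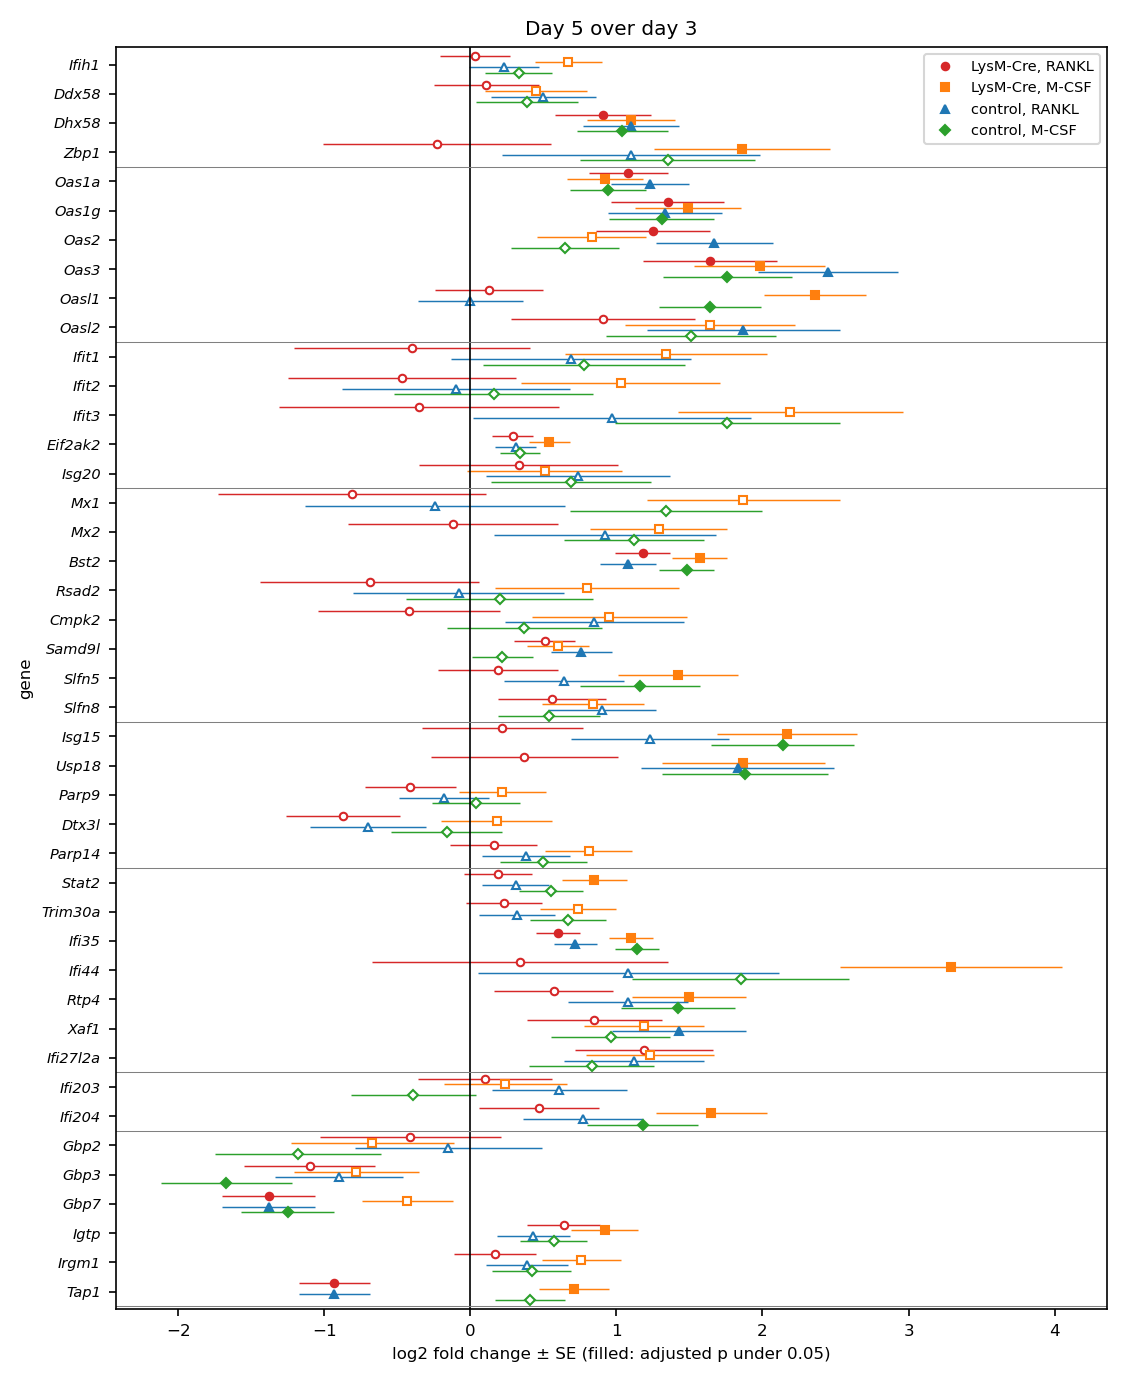
Log2 fold change of day 5 over day 3 (x axis, bars ± SE) for the 43 genes (y axis, grouped by role), with 1 marker per genotype label and medium and filled markers for an adjusted p under 0.05. The oligoadenylate synthetase block lies mostly right of 0 in all 4 comparisons, while Gbp3 and Gbp7 lie left of 0.

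Of the 6 oligoadenylate synthetases and related genes, 4 rose in each comparison in libraries labelled LysM-Cre, and in control libraries 5 rose under RANKL and 4 in M-CSF alone. Under RANKL, Oas3 at day 5 was 3.12-fold above day 3 in libraries labelled LysM-Cre (adjusted p = 0.0104) and 5.47-fold above it in control libraries (adjusted p = 0.000916), from the values given above, and no day 5 library overlapped a day 3 library. Oas1a rose 2.11-fold and 2.34-fold under RANKL and 1.89-fold and 1.92-fold in M-CSF alone, in libraries labelled LysM-Cre and in control libraries. In libraries labelled LysM-Cre, the call of Oas1a in M-CSF alone held in 8 of 14 alternative analyses, and that of Oas3 under RANKL in 11 of 14.

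Bst2 rose in all 4 comparisons, 2.26-fold and 2.11-fold under RANKL (edgeR adjusted p = 0.000124 and adjusted p = 0.000398) and 2.97-fold and 2.78-fold in M-CSF alone (adjusted p = 6.92e-06 and adjusted p = 1.33e-05), in libraries labelled LysM-Cre and in control libraries. Ifi35 and Dhx58 also rose in all 4, by 0.6 to 1.14 and by 0.91 to 1.1 on the log2 scale. The Ifi35 calls held in all the alternative analyses, whereas those of Dhx58 held in 6 of 14 under RANKL and 9 of 14 in M-CSF alone in libraries labelled LysM-Cre, and in 9 of 13 in each medium in control libraries. Isg15 rose in M-CSF alone, 4.49-fold in libraries labelled LysM-Cre (adjusted p = 0.0051) and 4.41-fold in control libraries (adjusted p = 0.00415). Under RANKL its log2 fold changes were 0.22 ± 0.55 and 1.23 ± 0.54 (adjusted p = 0.792 and adjusted p = 0.0967), and that of libraries labelled LysM-Cre ran from -0.16 to 0.85 over the alternative analyses. Gbp7 was among the genes that went the other way, falling by 1.38 in each genotype under RANKL and by 1.25 in control libraries in M-CSF alone. In each of these comparisons the 2 genes called lower both belonged to the class of GTPases and peptide transport. Gbp3 had 21.1, 8.9 and 5.12 CPM at day 3 and 3.79, 3.52 and 3.71 CPM at day 5 in control libraries in M-CSF alone. Ifit1, Ifit2, Mx1 and Rsad2 passed the threshold in no comparison of days, with standard errors of 0.63 to 0.92.

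Whether the response to RANKL itself differed between days was tested as a difference of log2 fold changes, day 5 minus day 3. Only Oasl1 and Tap1 passed, both lower, in each genotype, against 15.2% of tested genes called (7.13% lower) in libraries labelled LysM-Cre and 14% (6.73% lower) in control libraries; the 2 genes are 4.65% of the list. Oasl1 at day 5 had 3.67, 2.54 and 2.6 CPM under RANKL and 25.1, 28.5 and 10.1 in M-CSF alone in libraries labelled LysM-Cre, and 3.03, 3.34 and 5.31 under RANKL and 19.2, 10.9 and 10.5 in M-CSF alone in control libraries. Oasl1 at day 3 had 2.11, 2.77 and 3.13 CPM under RANKL and 3.42, 5.77 and 3.15 in M-CSF alone in libraries labelled LysM-Cre, and 3.46, 4.44 and 3.79 under RANKL and 5.87, 3.78 and 3.35 in M-CSF alone in control libraries. Its RANKL libraries of the 2 days overlapped, and its M-CSF libraries of day 5 were all above those of day 3. Its RANKL response was -2.86 ± 0.36 at day 5 (adjusted p = 1.27e-06) and -0.63 ± 0.37 at day 3 (adjusted p = 0.148) in libraries labelled LysM-Cre, and -1.79 ± 0.35 (adjusted p = 0.000246) and -0.15 ± 0.36 (adjusted p = 0.734) in control libraries. The difference was -2.23 ± 0.51 (adjusted p = 0.00462) in libraries labelled LysM-Cre and -1.64 ± 0.5 (adjusted p = 0.032) in control libraries, and over the alternative analyses the adjusted p in control libraries reached 0.0998. For Tap1 the differences were -1.64 ± 0.33 (adjusted p = 0.00191) and -1.34 ± 0.33 (adjusted p = 0.00955).

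The third comparison is the one the study was built on, LysM-Cre;Rosa26-Runx1tg/+ against Rosa26-Runx1tg/+. None of the 43 genes passed the threshold in any of the 4 groups of medium and day by edgeR, and DESeq2 likewise called 0. Of all tested genes 0% were called in each. At an unadjusted p under 0.05 there were 3 of the 43 in M-CSF alone at day 5 and 0 in the other 3 comparisons, by either tool. Without the 4 number 3 libraries labelled LysM-Cre the calls remained at 0, with 13 at an unadjusted p under 0.05 in M-CSF alone at day 5 and 0 in the others. The share of all tested genes at this unadjusted cut was not counted. Counts at this cut, here and below, therefore cannot be set against a background.

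In M-CSF alone at day 5 all 43 fold changes were positive, with a median of 0.42 on the log2 scale, against 0 over all tested genes, and the smallest adjusted p was 0.711. The 3 with an unadjusted p under 0.05 were Gbp7 at 0.76 (95% interval 0.09 to 1.44), Samd9l at 0.52 (0.09 to 0.95) and Eif2ak2 at 0.31 (0.02 to 0.6). Groups did not overlap for 2 genes, both higher, Gbp3 and Gbp7, while 8.74% of all tested genes were higher and 8.03% lower without overlap. The 43 values are not independent, since the listed genes vary together between libraries. For Isg15 the log2 fold change was 0.34 (95% interval -0.62 to 1.29), and for Ifit2 it was 1.12 (-0.3 to 2.54), intervals that reach past a 2-fold difference upward.

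In the other 3 groups the medians were nearer 0. They were -0.2 under RANKL at day 5, 0.11 under RANKL at day 3 (-0.44 without number 2 of the libraries labelled LysM-Cre) and 0.12 in M-CSF alone at day 3. In each of these 1 gene of the list did not overlap, Isg20 lower under RANKL at day 5 (all genes 5.38% higher, 4.95% lower), Oasl1 lower under RANKL at day 3 (2.81% and 2.85%), and Eif2ak2 higher in M-CSF alone at day 3 (2.72% and 2.69%). The RANKL response in libraries labelled LysM-Cre minus that in control libraries was called for 0 of 43 genes and 0% of all tested genes on each day by edgeR, and DESeq2 called 0. At an unadjusted p under 0.05 there were 2 at day 5, Oasl1 at -1.06 and Samd9l at -0.69 (3 by DESeq2), and 0 at day 3. Leaving out the 4 number 3 libraries labelled LysM-Cre gave 0 calls on each day, with 5 genes at that unadjusted cut at day 5 and 0 at day 3. With all libraries, the median of this difference was -0.64 at day 5, with all 43 values negative, and -0.06 at day 3. It was -0.19 at day 5 without control number 3 under RANKL, and -0.57 at day 3 without number 2 labelled LysM-Cre under RANKL.

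The spread between replicate libraries was larger for these genes than for most. The median standard deviation of log2(CPM + 0.5) over 3 libraries was 0.268 for the list, against 0.155 for all tested genes, under RANKL at day 5 in libraries labelled LysM-Cre, and 0.753 against 0.185 under RANKL at day 3. In M-CSF alone it was 0.472 against 0.129 at day 5 and 0.424 against 0.231 at day 3 in the same genotype. In control libraries it was 0.501 against 0.1 and 0.391 against 0.177 under RANKL at days 5 and 3, and 0.295 against 0.133 and 0.468 against 0.203 in M-CSF alone. Under RANKL at day 3 in libraries labelled LysM-Cre the highest was that of Oasl2, at 1.42, followed by Ifit2 at 1.41, and Ifit3 had 1.28 under RANKL at day 5 in control libraries.

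The spread was shared across the list, and in each group a single library, or in one group a pair, was high for nearly all genes. In libraries labelled LysM-Cre, number 2 was the highest of 3 for 41 of 43 genes under RANKL at day 3 and for 41 in M-CSF alone at day 3, and number 1 was highest for 36 under RANKL at day 5. In M-CSF alone at day 5 number 3 was the lowest of 3 for all 43, and it had the lowest mean of its group in all 4 groups of that label. In control libraries number 3 was highest for all 43 genes under RANKL at day 5. Number 1 was highest in the other control groups, for 39 under RANKL at day 3, 41 in M-CSF alone at day 5 and 39 in M-CSF alone at day 3. The median correlation between pairs of listed genes was 0.85 for deviations from the group mean and 0.92 over all 24 libraries. The second value also holds the differences between groups, such as that between media, and so does not describe replicate spread alone. All genes of a library share its depth and scaling factor, and the part of these in the correlations was not tested. Ifi35 followed the others least within groups (median 0.03), and Gbp7 least over all libraries (median -0.29).

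As a mean over the 43 genes of log2(CPM + 0.5), libraries 1 to 3 labelled LysM-Cre had 3.54, 3.1 and 3.09 under RANKL at day 5, 2.66, 3.74 and 2.44 under RANKL at day 3, 6.19, 6.09 and 5.22 in M-CSF alone at day 5, and 4.72, 5.3 and 4.36 in M-CSF alone at day 3. Control libraries had 3.05, 3.1 and 4.02 under RANKL at day 5, 3.31, 2.82 and 2.59 under RANKL at day 3, 5.73, 5.24 and 5.25 in M-CSF alone at day 5, and 5.18, 4.6 and 4.2 in M-CSF alone at day 3. Every RANKL library lay below every M-CSF library. The highest RANKL value was 4.02, and the lowest M-CSF value was 4.2. By genotype the groups interleave at every day and medium. Group means ± SD were 3.24 ± 0.258, 2.95 ± 0.692, 5.83 ± 0.536 and 4.79 ± 0.477 in libraries labelled LysM-Cre, and 3.39 ± 0.549, 2.91 ± 0.365, 5.41 ± 0.276 and 4.66 ± 0.492 in control libraries, in the same order of medium and day (n = 3 each).

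**Figure D5:**
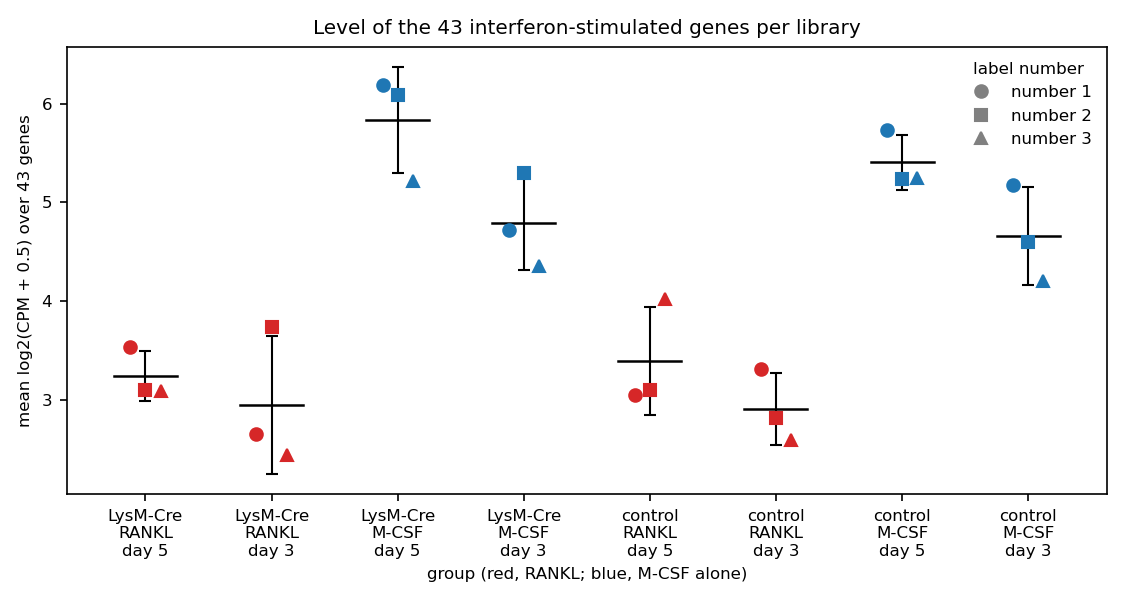
Mean log2(CPM + 0.5) over the 43 genes (y axis) in each of the 24 libraries, by group (x axis), with marker shape for the library number, a line at the group mean and bars of ± SD (n = 3). RANKL libraries run up to 4.02 and M-CSF libraries from 4.2 up, and genotype labels overlap within each medium and day.

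The rest of the pathway was read from lists taken with earlier results of these data known. The 20 interferon genes themselves were near 0, with a summed level of at most 0.279 CPM in any library, and 0 of 20 passed the filter, so no test was made. Of 14 receptor and JAK-STAT genes, 9 fell and 1 rose under RANKL at day 5, and 7 fell and 1 rose at day 3, the same counts in each genotype. Of all tested genes at day 5, 52.4% were called in libraries labelled LysM-Cre (27.5% higher, 24.9% lower). In control libraries it was 49.4% (26.4% higher, 23.1% lower). At day 3 the shares were 59.2% (29.1% higher, 30.1% lower) and 59.1% (29.5% higher, 29.7% lower), in the same order of genotypes. The share of this list called in either direction at day 3 was near the background. Irf9, the DNA-binding partner of Stat2, fell by 1.57 and 2.1 at days 5 and 3 in libraries labelled LysM-Cre and by 1.49 and 2.01 in control libraries. Ifnar1 fell by 0.7 and 0.4 in libraries labelled LysM-Cre at days 5 and 3, and Jak1 by 0.59 and 0.6. Socs1, a feedback inhibitor of these kinases, passed in none.

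Of 20 genes that sense nucleic acid upstream of interferon, 15 fell in each RANKL comparison, not always the same ones, and 3 rose in each but control libraries at day 5, where 2 rose. Of all tested genes, 24.9% and 30.1% fell at days 5 and 3 in libraries labelled LysM-Cre, and 23.1% and 29.7% in control libraries. Irf7, the transcription factor that amplifies interferon production, fell by 3.43 ± 0.63 and 2.1 ± 0.64 at days 5 and 3 in libraries labelled LysM-Cre and by 2.41 ± 0.61 and 1.88 ± 0.63 in control libraries. Tlr7, the endosomal sensor of viral RNA, fell by 3.14 and 3.51 in libraries labelled LysM-Cre and by 2.87 and 3.47 in control libraries. Mavs, the mitochondrial adaptor of Ifih1 and Ddx58, rose at day 5 by 0.32 and by 0.41 on the log2 scale, in libraries labelled LysM-Cre and in control libraries.

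Of 58 tested further interferon-induced genes outside the 43, 48 fell and 2 rose under RANKL at day 5 in libraries labelled LysM-Cre, and 38 fell and 6 rose at day 3. In control libraries 41 fell and 3 rose at day 5, and 33 fell and 6 rose at day 3, beside the same shares of all tested genes. Ifitm3, which blocks virus entry from endosomes, fell by 1.81 and by 1.31 at day 5 in libraries labelled LysM-Cre and in control libraries. Lgals3bp, the most abundant of that list, fell by 1.47 and by 1.23, and Ly6e, which blocks coronavirus entry in mice, fell by 1.22 and by 0.73. Between genotypes 0 genes of these lists were called in any group, as 0% were of all tested genes. In M-CSF alone 22 of the 58 rose and 1 fell at day 5 over day 3 in libraries labelled LysM-Cre. Of all tested genes 14.3% were called there, 7.17% higher and 7.08% lower. In control libraries 13 rose and 1 fell. The share called in either direction was near the 23.7% of all tested genes, which split into 12.2% higher and 11.5% lower.

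Cell type markers also moved with the medium. Of all tested genes 49.4% to 59.2% were called in these comparisons, 26.4% to 29.5% higher and 23.1% to 30.1% lower. All 11 osteoclast markers, among them Acp5, Ctsk and Mmp9, rose under RANKL in all 4 comparisons, and their summed level was 36400 to 60300 CPM under RANKL and 111 to 175 CPM in M-CSF alone. Of 11 macrophage markers, 10 fell and 0 rose at day 5 and 9 fell and 1 rose at day 3 in each genotype, with summed levels of 5160 to 9210 CPM under RANKL and 18800 to 35400 CPM in M-CSF alone. Their part in the falls was not tested. The 7 markers of plasmacytoid dendritic cells, a rich source of interferon, summed to 0.605 to 2.67 CPM in any library. Lymphoid markers (9 genes) summed to 1.3 to 21.2 CPM, and 4 to 6 of them were at 0 in each group. The 9 neutrophil granule markers summed to 55.6 to 197 CPM. Of 8 tested, 1 and 5 fell under RANKL at days 5 and 3 in libraries labelled LysM-Cre. In control libraries 5 fell on each day, and 0 rose in either genotype. The 8 stromal markers summed to 11.7 to 363 CPM. Of 5 tested, 1 rose and 0 fell in each RANKL comparison. The stromal sums were 23.5 to 363 CPM in libraries labelled LysM-Cre and 17.3 to 146 CPM in control libraries at day 5, and 11.7 to 27.2 CPM and 13.5 to 31.9 CPM at day 3, and their part in the change between days was not tested.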

How the data were processed

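RNA was measured in 24 libraries from 2 genotypes, 2 media and 2 days, with 3 libraries in each of 8 groups. The authors deposited 1 table of raw counts, whole numbers with no normalization, for 54532 genes. Per the labels' protocols, 250 ng of total RNA entered a TruSeq RNA kit, and cells were seeded at 15000 per well. STAR, DESeq2 and GRCm39 are named in the submitters' processing notes. The sources used here give no versions, counting settings or strand. The table's positions of all 43 genes equal those of GENCODE M21 (GRCm38), and each deposited length equals the union of the exons.

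The tests used edgeR 4.0.16 (R 4.3.3). The filter filterByExpr left 15035 genes (27.6%), libraries were scaled by TMM, and a robust quasi-likelihood model with 1 coefficient per group was fitted to all 24 libraries. The Benjamini-Hochberg adjustment ran over all tested genes, with calls at an adjusted p under 0.05. The SE comes from the log2 fold change and its F statistic. CPM uses the TMM-scaled library, and logs of CPM add 0.5. Intervals are at 95%. The procedure was tested on simulated data. Depth was 18975750 to 36523995 counts, and 1 read was worth 0.0286 to 0.0542 CPM.

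Alternatives were RLE scaling, no scaling factors, no low-count filter, DESeq2 1.42.0, the compared groups alone, blocks by library number, each library left out, and the 4 number 3 libraries labelled LysM-Cre left out. Replicates were compared, and no pair of a group agreed within sampling noise (chi-square per gene 3.36 to 109). Same-numbered libraries deviated together in every pair (correlation over 0.1) for RANKL over M-CSF in control libraries at day 3 (0.12 to 0.44) and in libraries labelled LysM-Cre at day 5 (0.22 to 0.43), where the blocked counts of calls did not differ from the unblocked. The other comparisons did not meet this.

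All 43 genes may be named. Values in every library are given for the 2 most abundant genes of each role and for Isg15, Ifit1, Mx1 and Rsad2, and for others where a result turns on them. The 43 genes, the other lists and the tests were chosen with earlier results of these data known. Promoter windows are from RefSeq (GRCm38.p6), and 11 of the 43 genes had no entry. Close copies with counts of their own (Ifit3b, Slfn9, Oas1b, Trim30d, Irgm2) may share reads with the listed genes.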

Additional observations from a re-analysis of the deposited data

Results flagged for a closer look

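The RANKL responses of 2 genes of the list, Oasl1 and Tap1, differed between days 5 and 3 by the test of the difference itself. They are 4.65% of the list, below the 15.2% of all tested genes called in libraries labelled LysM-Cre and 14% in control libraries. For Oasl1 the difference of log2 fold changes, day 5 minus day 3, was -2.23 in libraries labelled LysM-Cre and -1.64 in control libraries. For Tap1 it was -1.64 in libraries labelled LysM-Cre and -1.34 in control libraries. The call of the Oasl1 difference in control libraries was lost in 8 of 19 alternative analyses. Between days 5 and 3, Oasl1 rose in M-CSF alone in both genotypes and passed the threshold under RANKL in neither, and Tap1 fell under RANKL in both and rose in M-CSF alone in libraries labelled LysM-Cre, a call that held in 6 of 14 alternative analyses.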

How the results depend on the processing

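No called value of a listed gene changed direction under the alternatives run, but values that missed the threshold did, such as Isg15 for day 5 over day 3 under RANKL in libraries labelled LysM-Cre (-0.16 to 0.85). The counts of genes called for RANKL over M-CSF alone stayed within 1.5 times under all alternatives, with leave-one-out ranges of 40 to 41 at day 5 and 33 to 39 at day 3 in libraries labelled LysM-Cre and 36 to 40 and 31 to 39 in control libraries. Genotype counts stayed at 0 throughout.

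The counts between days were the least stable. Without the 4 number 3 libraries labelled LysM-Cre, the count under RANKL in that genotype was 5 instead of 9. Without the filter on low counts, where more genes are tested, M-CSF alone gave 11 instead of 18 in libraries labelled LysM-Cre and 9 instead of 14 in control libraries, and the control difference of RANKL responses gave 1 instead of 2. With a replicate block by genotype and number, M-CSF alone gave 30 in libraries labelled LysM-Cre and 24 in control libraries, and no other count moved beyond 1.5 times with a block. In those 2 comparisons same-numbered libraries did not deviate together in every pair (correlations 0.05 to 0.42 and -0.11 to 0.07). That does not settle whether the numbers pair the libraries. The number 3 libraries labelled LysM-Cre stood apart in the sex-linked genes on both days.

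Leaving out 1 library at a time gave 5 to 15 calls under RANKL in libraries labelled LysM-Cre (5 without day 3 number 1, 15 without day 3 number 2), and 9 to 26 in M-CSF alone (9 without day 5 number 1 or number 2, 11 without day 3 number 1). In control libraries it gave 7 to 14 under RANKL (7 without day 3 number 2 or day 5 number 3, 8 without day 3 number 3) and 7 to 13 in M-CSF alone (7 without day 5 number 1, 9 without day 3 number 2 or number 3). The difference of RANKL responses by day gave 2 to 4 in libraries labelled LysM-Cre (4 without M-CSF day 3 number 2) and 1 to 2 in control libraries (1 without number 1 or number 2 under RANKL at day 5, number 2 or number 3 under RANKL at day 3, number 1 in M-CSF alone at day 5, or number 2 or number 3 in M-CSF alone at day 3). Causes were not tested. The tally for single genes covers only values called in the main analysis, for the genes described in every library. Over the alternatives 1378 such values kept the call and 91 lost it. Of the list medians, 233 moved by less than the spread and 6 by more. Without number 2 of the libraries labelled LysM-Cre under RANKL at day 3, the median was -2.79 for RANKL over M-CSF alone at day 3, 0.76 for day 5 over day 3 under RANKL, -0.44 for genotype under RANKL at day 3 (0.11 with it) and -0.57 for the genotype difference of RANKL responses at day 3. Without control number 3 under RANKL at day 5, it was 0.17 for day 5 over day 3 under RANKL in control libraries and -0.19 for the genotype difference at day 5. Ifi44, Isg20 and Mx2 had 0 to 25, 3 to 21 and 2 to 16 reads in RANKL libraries, and Mx1 had 8 to 54.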
